A study of Mus musculus with 2 samples.

Results

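Tropomyosins and the proteins that bind the slow-growing (pointed) end of the actin thin filament were described in the gastrocnemius, a calf muscle of mainly fast fibres. The genes were Tpm1, Tpm2, Tpm3, Tpm4, Tmod1, Tmod3, Tmod4, Lmod2 and Lmod3, taken as every row of the transcript tables that carries one of these names, 9 of 15622 annotated genes with a read. They held 235 of 69762 transcript models of annotated genes in replicate 1 and 292 of 65515 in replicate 2. RNA was read in long reads from males of the F1 cross B6CASTF1/J at 25 days of age, with 2 biological replicates in 1 group, 2 µg of RNA in each library and no treatment or allele set against another. The labels name a separate animal for each replicate but give both the same donor record. Every test below compares these 2 libraries, not conditions, and except where a variation between animals is preset its p-value covers counting error only.

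Tropomyosin is a coiled coil that lies along the actin filament, and in striated muscle troponin shifts it so that myosin can bind. Tropomyosin genes make muscle and non-muscle forms from alternative exons, not all of which every gene has: an upstream start (exon 1a) gives long forms, an internal start (exon 1b) short ones, exon 6 is chosen as 6a or 6b, and the last coding exon is 9a in striated muscle and 9d in smooth muscle and most other cells. Tropomodulins cap the pointed end together with tropomyosin, and leiomodins, which resemble them, nucleate actin and lengthen the filament. A long read can show start, internal exon and end of a transcript on 1 molecule.

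The exon pairs that tell the forms apart are shown because most of the results rest on them. Exon 6a and exon 6b have 76 bases in Tpm1, Tpm2 and Tpm3, all coding, and they share 43 bases by position in Tpm1, 41 in Tpm2 and 39 in Tpm3. In mm10 they lie at chr9:67032466-67032541 and chr9:67031951-67032026 (minus strand) in Tpm1, at chr4:43519003-43519078 and chr4:43518644-43518719 (minus strand) in Tpm2, and at chr3:90088401-90088476 and chr3:90089048-90089123 (plus strand) in Tpm3. Capitals mark the bases that differ between the pair, and the sequences are those of GENCODE M21.
Tpm1 exon 6a: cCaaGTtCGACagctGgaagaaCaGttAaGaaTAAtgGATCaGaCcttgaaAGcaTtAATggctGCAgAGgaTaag
Tpm1 exon 6b: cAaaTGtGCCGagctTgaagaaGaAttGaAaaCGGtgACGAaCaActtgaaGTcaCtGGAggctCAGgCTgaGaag
Tpm2 exon 6a: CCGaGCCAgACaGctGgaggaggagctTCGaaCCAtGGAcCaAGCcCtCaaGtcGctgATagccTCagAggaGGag
Tpm2 exon 6b: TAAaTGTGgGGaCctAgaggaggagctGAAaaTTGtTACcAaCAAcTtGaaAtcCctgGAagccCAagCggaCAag
Tpm3 exon 6a: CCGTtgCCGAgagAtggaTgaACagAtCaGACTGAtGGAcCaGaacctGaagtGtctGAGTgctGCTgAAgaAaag
Tpm3 exon 6b: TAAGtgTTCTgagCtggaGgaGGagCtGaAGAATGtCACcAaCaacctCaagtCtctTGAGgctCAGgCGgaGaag
Between genes, 6b was more alike than 6a: the 6b exons shared 73.7% to 76.3% of bases in the 3 pairs of genes, and the 6a exons 61.8% to 65.8%. The coding bases of the terminal exons of Tpm1 lie at chr9:67029664-67029742 (9a) and chr9:67023362-67023441 (9d), and over the first 79 bases they share 34.
Tpm1 exon 9a: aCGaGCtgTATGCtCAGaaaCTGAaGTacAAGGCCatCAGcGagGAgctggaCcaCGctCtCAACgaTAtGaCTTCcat
Tpm1 exon 9d: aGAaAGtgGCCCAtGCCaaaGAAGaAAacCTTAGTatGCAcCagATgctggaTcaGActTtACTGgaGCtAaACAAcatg
Capitals again mark the differences, so each of these choices replaces a stretch of the coiled coil or its end with another sequence.

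The libraries held 1292409 reads (replicate 1) and 1703457 reads (replicate 2), of which 1215785 and 1549606 lay in annotated genes. The level of a gene is its CPM, that is its reads for each 1000000 of these gene reads, and a count of 0 allows 2.47 CPM in replicate 1 and 1.94 in replicate 2. All 5 skeletal fibre markers were detected, with sums of 169073 and 152462 CPM. Markers of other cells were lower: the 6 fibroblast genes summed to 4593 and 923 CPM, the 6 smooth muscle and pericyte genes to 185 and 127, the 5 endothelial genes to 110 and 58.1, and the 4 cardiac genes to 4.94 and 3.23, with Nppa at 0 reads in both. The 5 immune genes summed to 68.3 and 71.0 CPM, with Ptprc at 0 reads in both, and the 5 erythroid genes to 393 and 638 CPM. The annotated transcripts to which reads were assigned had a mean annotated length of 2153 nt per read in replicate 1 and 1538 nt in replicate 2.

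The 4 tropomyosin genes held 35086 reads in replicate 1 and 51371 in replicate 2, against 678 and 787 for the tropomodulins Tmod1 to Tmod4 and 190 and 156 for the leiomodins Lmod1 to Lmod3. Tpm1, the alpha-tropomyosin of fast and cardiac muscle (chromosome 9, 67022590 to 67049406, minus strand), held 86.8% of all tropomyosin reads in replicate 1 (30459) and 86.6% in replicate 2 (44495). Tpm2, beta-tropomyosin (chromosome 4, 43514711 to 43523765, minus strand), had 3952 and 4993 reads, shares of 11.3% and 9.72%. Tpm3, the alpha-tropomyosin of slow fibres (chromosome 3, 90072649 to 90100902, plus strand), had 626 and 1818 reads, and Tpm4, a tropomyosin of non-muscle cells (chromosome 8, 72134975 to 72153142, plus strand), had 49 and 65. Per kb of each gene's leading transcript the order was the same in both libraries: Tpm1 took 91.1% and 90.2%, Tpm2 6.81% and 5.83%, Tpm3 1.99% and 3.91%, and Tpm4 0.0832% and 0.0748%. No gene overlapped its neighbour in this order in either library.

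Among tropomodulins, Tmod4 and Tmod1, the forms that cap skeletal thin filaments, held nearly all reads. Tmod4 (chromosome 3, 95124476 to 95129209, plus strand) had 377 and 584 reads, and Tmod1 (chromosome 4, 46038935 to 46116032, plus strand) had 286 and 192. Tmod4 thus made up 55.6% and 74.2% of tropomodulin reads, and 76.2% and 88.1% per kb, above Tmod1 in both libraries. Tmod3, found in most cells (chromosome 9, 75497707 to 75559657, minus strand), had 15 and 10 reads, and Tmod2, the form of neurons, 0 and 1. Of the leiomodins, Lmod3 (chromosome 6, 97238534 to 97252759, minus strand), which skeletal muscle needs for ordered thin filaments, had 110 and 121 reads, and Lmod2 (chromosome 6, 24597762 to 24605414, plus strand), prominent in heart, had 77 and 33. Lmod1, the leiomodin of smooth muscle, had 3 and 2 reads. Lmod3 held 57.9% of leiomodin reads in replicate 1 (95% Clopper-Pearson interval 50.5 to 65.0) and 77.6% in replicate 2 (70.2 to 83.8). Lmod3 was ahead of Lmod2 in both libraries, also per kb, where it took 55.6% and 76.05%.

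**Figure D1:**
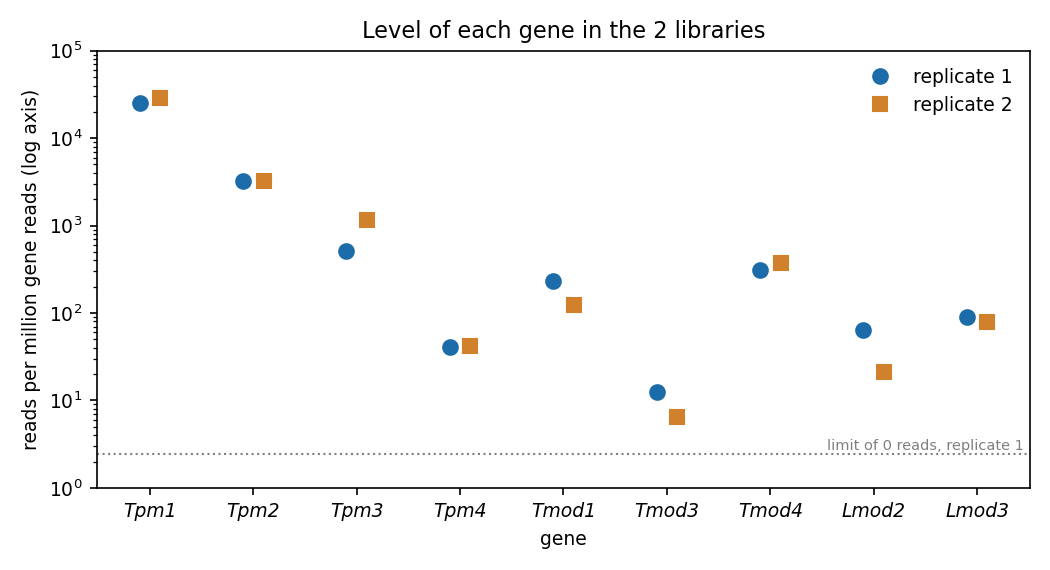
Level of each of the 9 genes in CPM (log axis), with replicate 1 as circles and replicate 2 as squares; the dotted line is the limit that 0 reads allow in replicate 1. Tpm1 stood at 25053 and 28714 CPM, and Tmod3, the lowest, at 12.3 and 6.45 CPM.

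Between the libraries, 3 of the 9 genes were higher in replicate 2, 2 were lower and 4 did not pass the test, the two-sided Fisher exact test on reads with Benjamini-Hochberg adjustment over 8692 genes. Over all those genes 43.3% passed, 17.0% higher and 26.3% lower, so a call is common in these libraries. Higher calls were 39.3% of all calls, 55.0% under TMM scaling, 56.4% with DESeq2 size factors and 26.2% over annotated transcripts alone. The median log2 ratio (replicate 2 over replicate 1, of CPM + 1) was -0.01 for the 9 genes and -0.27 for all tested. Tpm3 had 515 and 1173 CPM, a log2 ratio of 1.19 ± 0.07 (counting SE, adjusted p = 5.4e-77 by the exact test). Tpm1 had 25053 and 28714 CPM, a log2 ratio of 0.20 ± 0.01 (adjusted p = 7.2e-76, exact test). Tmod4 had 310 and 377 CPM, a log2 ratio of 0.28 ± 0.10 (adjusted p = 0.0096, exact test). Lower in replicate 2 were Tmod1, with 235 and 124 CPM and a log2 ratio of -0.92 ± 0.13 (adjusted p = 5.3e-11, exact test), and Lmod2, with 63.3 and 21.3 CPM and a log2 ratio of -1.53 ± 0.30 (adjusted p = 3.3e-07, exact test). Tpm2 (3251 and 3222 CPM), Tpm4 (40.3 and 41.9), Tmod3 (12.3 and 6.45) and Lmod3 (90.5 and 78.1) were not past the threshold.

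The leading transcripts of the genes that were higher in replicate 2 are short (Tpm3-205 with 1139 nt, Tpm1-205 with 1208 nt, Tmod4-201 with 1242 nt), and those of the genes that were lower are longer (Lmod2-201 with 1976 nt, Tmod1-201 with 3158 nt). Tpm2-202 (2098 nt), Tpm4-201 (2128 nt), Lmod3-201 (2215 nt) and Tmod3-201 (3667 nt) are longer than Lmod2-201, and their genes were not past the threshold. The part of transcript length in these differences was not tested. Scaling by edgeR's TMM factors moved the median of all genes to -0.02: the 5 genes named above held their direction and call, Tpm2 passed as higher (0.28), and Lmod3 changed sign without passing (0.08). Over annotated transcripts alone Tmod4 no longer passed (0.15, adjusted p = 0.28 by the exact test), and Tpm2 passed as lower (-0.23). With a coefficient of variation between animals of 0.2 in edgeR's exact test, 2 of the 9 genes passed, Tpm3 (adjusted p = 0.037) and Lmod2 (adjusted p = 0.025), and with 0.4 none did, while 15.5% and 0.0920% of all genes passed.

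Of the other thin filament genes, 20 listed genes of actin, troponin, nebulin, the capping proteins and the Z-disc end, 7 were higher, 11 lower and 2 not past the same test, with a median log2 ratio of -0.29. Over all genes tested 17.0% were higher and 26.3% lower, with a median of -0.27, close to that of the list. All 6 troponin genes of the list were among the 7, from 0.45 for Tnni2, fast troponin I, to 3.09 for Tnnt1, slow troponin T; the other was Tcap, a small titin-binding protein of the Z-disc. Lower were the ruler protein nebulin (Neb, -0.51), Nrap (-1.73) and the kelch protein Klhl40 (-1.49), which stabilises Lmod3 and nebulin. Tpm3 is the tropomyosin of slow fibres, and of the 6 slow fibre markers 5 were higher and Myh7, the slow myosin heavy chain, was lower, with a sum of 2354 and 7689 CPM. Whether slow fibre content has a part in the level of Tpm3 was not tested, and in whole tissue fewer fibres of a type cannot be told apart from less RNA in each.

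Exon choice in Tpm1 and Tpm2 was close to that of striated muscle alone. In Tpm1 the start was exon 1a in 29875 of 29875 informative reads of replicate 1 and in 42352 of 42359 of replicate 2. Exon 2 was 2b in all but 4 and 5 reads, and exon 6 was 6b in all but 0 and 1. These exons are not held by striated forms alone: 1a and 6b are also in the smooth muscle chain, and 1a, 2b and 6b were joined to 9d in 1 and 5 reads. The terminal exon, taken as the one nearest the 5′ end where a read held several, was 9a for Tpm1 in 30357 reads of replicate 1 (99.9%, 95% Clopper-Pearson interval 99.83 to 99.91) and in 44237 of replicate 2 (99.8%, 99.81 to 99.88). Of the reads with start, internal exons and end all visible, 29815 of 29852 in replicate 1 joined 1a, 2b, 6b and 9a, a share of 99.88%, and 99.85% did so in replicate 2. Tpm2, for which 1a was the only start exon named, gave the same picture, with 1a, 6b and 9a on 99.95% of such reads in replicate 1 and 99.79% in replicate 2.

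Tpm3 made a muscle and a non-muscle form side by side. The long start 1a had 596 reads and the internal start 1b 23 in replicate 1, a long share of 96.3% (interval 94.5 to 97.6), and 1764 and 12 in replicate 2, a share of 99.3% (98.8 to 99.7). The intervals do not overlap. In CPM the short start stood at 18.9 and 7.74 and so was the lower in replicate 2, while the gene as a whole was the higher there. The annotated long form Tpm3-205 has 1139 nt and the short form Tpm3-201 has 2230 nt, and the part of length in this difference was not tested. With the terminal exon again taken as the one nearest the 5′ end, the exons mostly went together. Of reads showing all 3 choices, 590 of 613 and 1728 of 1743 joined 1a, 6b and 9a. Of the rest, 13 and 7 reads joined 1b, 6a and 9d, which is the annotated non-muscle transcript Tpm3-201, and 7 and 2 joined 1b, 6b and 9d. Crossed reads were few. The long start with 9d and without 9a had 0 and 1 reads. The long start with both 9a and 9d had 4 and 3, and these are counted among the 590 and 1728. Reads with 1b, 6a and 9a numbered 2 and 2, of which 2 and 1 ran on past 9a to 9d. Of the 6 fibroblast markers 4 were lower in replicate 2 and 2 were not past, with sums of 4593 and 923 CPM. Of 5 smooth muscle and pericyte genes tested 3 were lower and 1 higher, and of 5 endothelial genes 2 were lower. Of 4 immune genes tested 0 were called, and of all genes 26.3% were lower. Tpm4, which has only the short start, stood at 40.3 and 41.9 CPM. The part of these cells in the short form of Tpm3 was not tested. Tpm3-rs7, an annotated Tpm3 copy, had 2 and 5 reads, and reads could have been exchanged with it.

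The 2 start regions of Tpm3 lie in different windows, shown here from the RefSeq promoter table of GRCm38.p6, each running from 250 bases before to 50 bases after an annotated start on the plus strand. The upstream window is chr3:90072401-90072700 and the internal one chr3:90079271-90079570.
Tpm3 upstream start: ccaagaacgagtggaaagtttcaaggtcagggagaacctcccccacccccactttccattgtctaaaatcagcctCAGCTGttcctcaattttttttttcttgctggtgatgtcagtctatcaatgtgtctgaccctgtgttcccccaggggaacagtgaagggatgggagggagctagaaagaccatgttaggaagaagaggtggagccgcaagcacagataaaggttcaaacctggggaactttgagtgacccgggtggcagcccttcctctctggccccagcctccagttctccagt
Tpm3 internal start: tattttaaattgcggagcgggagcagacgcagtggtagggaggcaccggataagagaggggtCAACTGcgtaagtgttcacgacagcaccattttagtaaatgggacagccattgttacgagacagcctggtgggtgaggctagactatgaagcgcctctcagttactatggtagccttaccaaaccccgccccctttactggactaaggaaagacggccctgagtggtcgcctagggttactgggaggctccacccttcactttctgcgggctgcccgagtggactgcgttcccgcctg
Capitals mark matches to the 4 motifs searched on both strands: the E-box CANNTG, the TATA box TATAAA, MEF2 and the CArG box. Each window held 1 E-box and none of the others, whereas among 32851 promoters of the same length 72.3% held an E-box, 13.6% the TATA box, 3.19% MEF2 and 1.63% a CArG box. Both windows matched at the E-box alone, the motif that most promoters hold.

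Tpm4 differs from the other tropomyosins in that its annotated transcripts have no 1a or 9a. Its start exon 1b was held by 48 and 61 reads and its end exon 9d by 48 and 62. As no other start or end exon was named for Tpm4, these counts could not show another choice. Tpm4-201 took 95.9% and 93.8% of the reads of the gene. Tpm4 therefore carried most of the short tropomyosin RNA: 48 of 71 short-start reads in replicate 1 and 61 of 80 in replicate 2. Short starts of all tropomyosins summed to 58.4 and 51.6 CPM (55.0 ± 4.79, SD, n = 2), and reads with 1b or 9d in any tropomyosin to 65.8 and 65.2 CPM.

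Traces of other tropomyosin forms were also read. In Tpm1, 2a was held by 4 reads in replicate 1 and 5 in replicate 2, all of which could be traced from 1a through 2a and 6b to 9d, the chain of smooth muscle tropomyosin, at 3.29 and 3.23 CPM. In Tpm2, 6a was joined to 9d in 2 and 7 reads, and 9d was used by 2 and 9. Since 9d is the end in smooth muscle and most other cells, these Tpm2 reads cannot be assigned to either. A terminal exon 9b without 9a, the striated exon, was held by 32 and 52 Tpm1 reads, of which 20 and 32 were the annotated transcript Tpm1-207. A further 11 and 12 were an unannotated chain with another exon in the place of 9a, between introns at 67028168 to 67030202 and 67030298 to 67031028. In 4 reads of each library Tpm1 carried both 6a and 6b, exons that annotated transcripts never join (chosen after its values were seen).

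**Figure D2:**
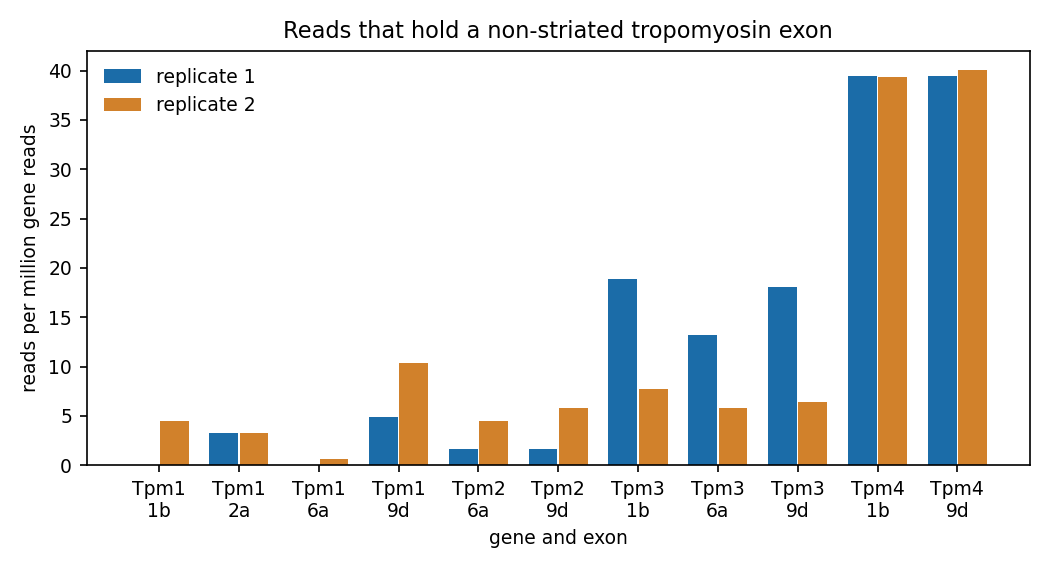
CPM of reads that hold an exon of non-striated tropomyosins, by gene and exon, with replicate 1 in blue and replicate 2 in orange. Tpm4 stands near 40 for both its exons in both libraries, Tpm3 exon 1b stands at 18.9 and 7.74, and the Tpm1 and Tpm2 exons do not exceed 10.3.

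In 8 of the 9 genes the same annotated transcript led in both libraries. The exception was Tmod3, with few reads: Tmod3-201 had 12 and 1, and Tmod3-205 had 1 and 2. Tpm1-205 (10 exons) took 96.8% of the reads of its gene in replicate 1 and 93.8% in replicate 2, Tpm2-202 (9 exons) 89.9% and 82.9%, and Tpm3-205 (10 exons) 90.7% and 92.0%. Tmod1-201 took 79.7% and 48.4%, Lmod2-201 88.3% and 60.6%, and Lmod3-201 70.9% and 57.9%. Among complete spliced reads the share of the leading intron chain was tested in 2766 genes, of which 1.99% passed the two-sided Fisher exact test with Benjamini-Hochberg adjustment. Of the 8 genes here with enough reads (Tmod3 was not tested), 0 passed, and 1, Tpm1, had an unadjusted p under the threshold (98.7% and 98.5%, p = 0.0102 by the exact test, adjusted 0.26). With incomplete models counted in, 2 of the 8 passed, Tpm1 and Tpm2, where 8.02% of all genes did.

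Tmod4 reads were divided between a pair of transcripts. Tmod4-201 and Tmod4-202, which code for the same length of protein (1035 coding bases each), took 43.0% and 30.5% of its reads in replicate 1 and 41.1% and 30.7% in replicate 2. Their shares differed by less than 2 points between the libraries. The transcripts part at the donor of the first exon, with 23 bases of non-coding exon (chr3:95124579-95124601, plus strand) kept in Tmod4-202 and spliced out in Tmod4-201.
Tmod4 bases between the donors: GTgagagGTgaccattgggactg
Capitals mark the GT at the start of the Tmod4-201 intron and a further GT, 7 bases downstream. An unannotated chain that uses this further donor was held by 4.51% of the reads of the gene in replicate 1 (17 reads) and 4.62% in replicate 2 (27 reads).

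Most spliced reads on the leading chains reached the 5′ exon. Reads that cross no intron and reads on other chains are not counted in these shares. Of all reads of the gene in replicate 2, the leading transcript took 48.4% for Tmod1 and 60.6% for Lmod2. Among reads on the leading intron chain or on a 3′ part of it, the full chain was held by 98.2% of Tpm1 reads in replicate 1 and 95.5% in replicate 2, by 95.3% and 90.9% for Tpm2, and by 99.1% and 98.7% for Tpm3. For Tmod1 it was 94.2% and 88.6%, for Tmod4-201 83.9% and 80.8%, for Lmod2 93.2% and 76.9%, and for Lmod3 91.8% and 80.5%. The shorter Tmod4 chains fit Tmod4-202 as well, while the 115 and 179 reads of Tmod4-202 are not counted. The Tmod4-201 shares are therefore too low for the gene. All 47 and 61 Tpm4 reads on its leading chain or a 3′ part of it were full. The share was lower in replicate 2 for every gene except Tpm4 and Tmod3, which were full in both, Tmod3 on only 12 and 1 reads. The intervals of Tpm1 and of Tpm2 do not overlap. Over all annotated genes the share of incomplete models also rose, from 9.28% in replicate 1 to 15.6% in replicate 2. Short reads did not stop evenly: Tpm1 had 139 and 913 reads with the last 6 of its 10 exons, more than at any other length, and Tpm2 had 48 and 148 with the last 4 of its 9.

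**Figure D3:**
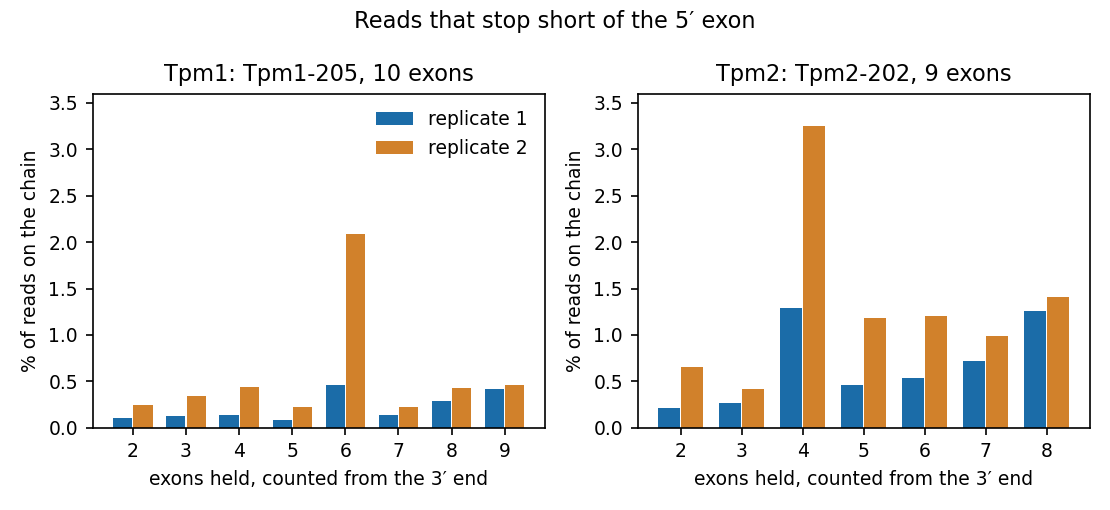
Share of reads on the leading chain of Tpm1 (left, 10 exons) and Tpm2 (right, 9 exons) that hold only the given number of exons counted from the 3′ end, in percent, for replicate 1 (blue) and replicate 2 (orange); full-length reads are left out. Reads with 6 exons of Tpm1 stand at 0.463% and 2.09%, and those with 4 exons of Tpm2 at 1.29% and 3.25%.

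Annotated models held 95.6% of the reads of the 9 genes in replicate 1 and 92.3% in replicate 2, against 65.8% and 70.6% over all annotated genes. Most of these reads were of Tpm1, with 30459 of 35951 in replicate 1 and 44495 of 52311 in replicate 2, and its share was 96.9% and 93.9%. In replicate 1 the lowest share was that of Lmod3, at 70.9%. In replicate 2 it was that of Tmod3, at 30.0% (3 of 10 reads), followed by Tmod1, at 49.5%. Lmod3, at 57.9%, and Lmod2, at 60.6%, were also below the share over all annotated genes in replicate 2. Tmod1 had 25 of 286 reads in the genomic class (unspliced or partly spliced) in replicate 1 and 77 of 192 in replicate 2, 8.74% and 40.1%. Over all annotated genes the genomic share also rose, from 2.30% to 6.86%. Leaving out the incomplete and genomic classes left Tmod1 lower in replicate 2, at a log2 ratio of -1.40. Of 15 and 10 Tmod3 reads, 1 and 5 were genomic.

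**Figure D4:**
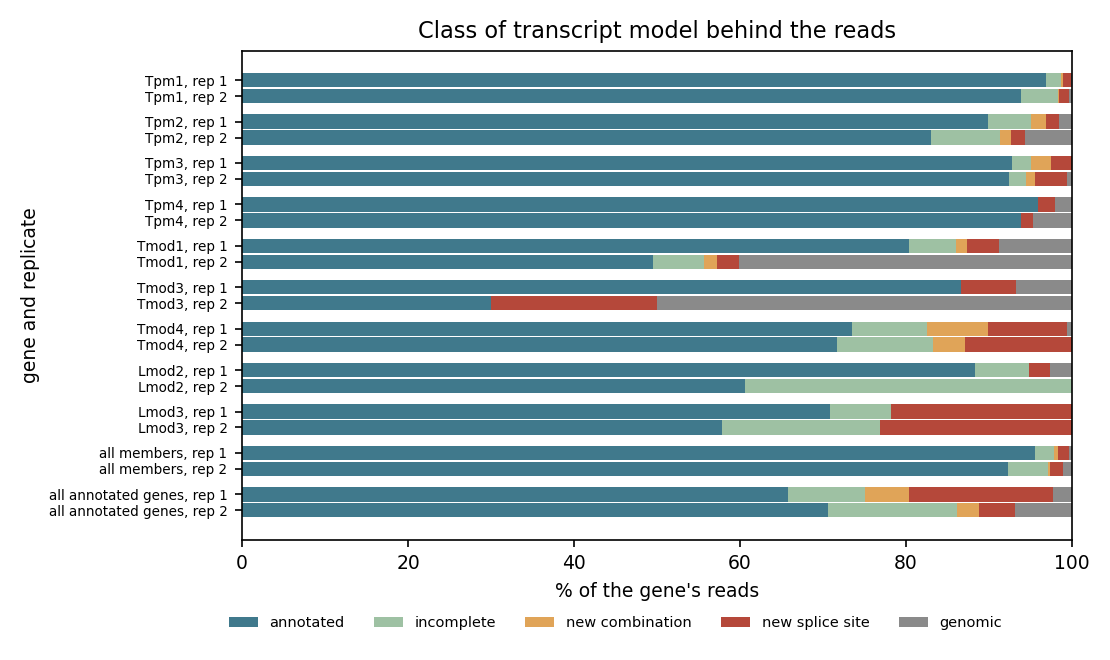
Percent of the reads of each gene on annotated, incomplete, new-combination, new-splice-site and genomic models, as stacked bars with 1 bar for each replicate; the lowest 4 bars give the 9 genes together and all annotated genes. The annotated part covers 95.6% and 92.3% for the 9 genes and is shortest for Tmod3 in replicate 2, at 30.0%.

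Outside the annotation, 98 spliced chains of the 9 genes had 2 or more reads in a library. Of these, 62 (63.3%) were also found in the other library, against 51.2% of 10431 such chains over all genes. The share was 29 of 41 (70.7%) for Tpm1, 9 of 23 (39.1%) for Tpm2 and 33 of 57 (57.9%) for the 9 genes without Tpm1. The depth of the genes was not matched in this comparison. Over all unannotated chains of Tpm1, 278 of 349 reads in replicate 1 and 497 of 591 in replicate 2 differed from an annotated chain only by splice sites moved by 10 bp or less. For all 9 genes this was 54.2% and 62.7% of unannotated reads, and for all annotated genes 4.82% and 10.7%. Without Tpm1 it was 61 of 276 reads (22.1%) and 117 of 388 (30.2%), and for Lmod3 alone 0% and 6.90%.

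The chain with most such reads was a Tpm1 transcript whose exon 4 starts 2 bases late, with 176 and 200 reads. The same shift was found at the same intron, the third, in Tpm2 and in Tpm3. Counting every read across that intron, the late acceptor was used by 184 of 30067 reads (0.612%) in replicate 1 and 206 of 42713 (0.482%) in replicate 2 for Tpm1. It was used by 14 and 9 reads (0.372% and 0.205%) for Tpm2 and by 2 and 10 reads (0.324% and 0.574%) for Tpm3. At every other intron of the 3 leading transcripts it had 0 reads in both libraries. Of 5192 annotated introns with 100 or more reads in each library, 80 (1.54%) had this 2-base shift in both, the pooled share was 0.0142% in each, and 13, 43 and 17 introns were as high in both libraries as those of Tpm1, Tpm2 and Tpm3, counting these themselves. This comparison was chosen after the values were seen. The last 15 bases of exon 3 and the first 15 of exon 4 are shown for the 3 genes, with the 2 bases that are lost in capitals; exon 4 lies at chr9:67033876-67033993 (minus strand), chr4:43519389-43519506 (minus strand) and chr3:90087455-90087572 (plus strand).
Tpm1 exon 3 to exon 4: agatgagagtgagagAGgcatgaaagtcat
Tpm2 exon 3 to exon 4: ggatgagagcgagagAGgaatgaaggtcat
Tpm3 exon 3 to exon 4: tgatgagagtgagagAGgtatgaaggtgat
In all 3 genes the lost AG follows another AG at the end of exon 3, so the letters of a read do not tell which copy is missing, and a late acceptor cannot be told apart from a 2-base gap in the read. Read as an acceptor, the shift changes the frame: the open reading frame of 284 codons ends after 129 in each of the 3 transcripts, a few codons past the 124 that come before exon 4.

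**Figure D5:**
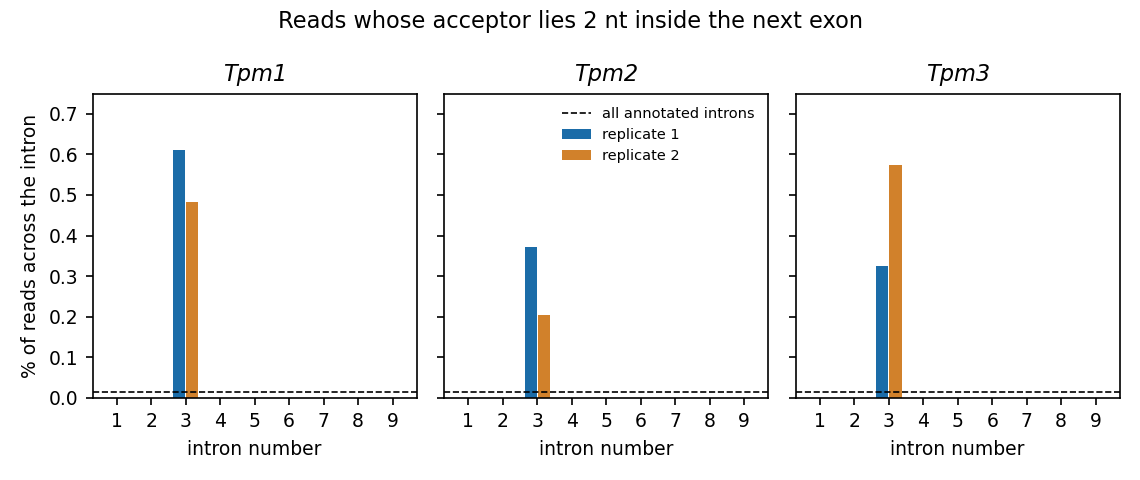
Percent of reads across each intron whose acceptor lies 2 nt inside the next exon, for the leading transcripts of Tpm1, Tpm2 and Tpm3, replicate 1 in blue and replicate 2 in orange; the dashed line is the pooled share of 5192 annotated introns in replicate 1, 0.0142%. Bars stand at the third intron of each gene, from 0.205% to 0.612%, and at no other intron.

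Another recurring shift in Tpm1 moved a donor 4 bases into the intron, with 7 and 63 reads at exon 2b and 5 and 54 at exon 4. Counting every read, the share at exon 2b was 0.0267% in replicate 1 and 0.155% in replicate 2, and at the matching donor of Tpm2 exon 2 it was 0.0268% and 0.276%, from 1 and 12 reads. Over 5193 annotated introns the pooled share was 0.0242% and 0.0813%. It was thus higher in replicate 2 in these genes and over all introns alike.

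Other unannotated chains changed the 5′ end. In Tpm2, 53 and 50 reads joined exon 1 to an upstream exon across an intron at chromosome 4, 43523374 to 43523700, and 16 and 23 reads used 43523422 to 43523700. The first of these introns is annotated in Tpm2-206, which is a short model, and the reads joined it to the whole striated chain of Tpm2-202. Both introns lie upstream of the start codon, at 43523354. In Lmod3, 22 of 110 reads in replicate 1 (20.0%) and 21 of 121 in replicate 2 (17.4%) carried an additional upstream exon across an intron at chromosome 6, 97252596 to 97253034. The exon lies outside the gene of GENCODE M21, which ends at 97252759, and inside that of RefSeq in GRCm38.p6, which ends at 97253217. The intron lies upstream of the start codon, at 97252571. A second Lmod3 chain with an intron at 97252596 to 97252705 had 1 and 5 reads. In Tmod4, 10 and 22 reads began in the first intron, with their own intron at 95125440 to 95125514, and in Tmod1 4 and 3 reads began at an internal exon, with an intron at 46083074 to 46083543.

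At the 3′ side, 2 and 18 reads of Tpm3 left the striated chain after the second exon for an exon that ends at 90076501, across an intron at chromosome 3, 90073846 to 90076264, and so lacked all exons from the third on. Tpm3 reads with the late acceptor of exon 4 (2 and 10) came next. In Tmod4, 16 and 20 reads had a last intron that ended at 95128985, upstream of the annotated end at 95129087, and 8 and 9 of them shared 1 chain. Tpm4, Tmod3 and Lmod2 had no recurring unannotated chain.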

How the data were processed

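Long-read RNA sequencing of gastrocnemius gave, for each library, a table of counts, and the deposited counts are whole reads per transcript model, not normalised. Per the file headers and the accompanying notes, the authors aligned reads to mm10 and assigned them to GENCODE M21 transcripts or to models of their own with TALON identifiers, each library apart; the other values taken from the deposited annotation are positions of exons, counted from 1. The aligner, read filters and strand setting were not given in the sources used here. Reads of antisense partners may therefore be mixed. The ends of annotated models are those of the annotation.

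Reads of all classes were summed per gene, spike-ins left out. Genes with 10 or more reads were compared by the two-sided Fisher exact test, and leading intron chains of complete spliced models in genes with 20 or more reads per library by the same test, both with Benjamini-Hochberg adjustment over all genes and a threshold of 0.05. A named exon was held where a splice site lay within 10 bp. Exons were named by their order in the annotation. Levels per kb divide a gene's reads by the length of its leading annotated transcript. Shares carry 95% Clopper-Pearson intervals, and the limit for 0 reads rests on 3 counts; amplified reads are not independent molecules, so both cover counting error only. Promoter windows came from RefSeq (8 windows for 7 of the 9 genes). Software was Python 3.11.15, SciPy 1.17.1, R 4.3.3, edgeR 4.0.16 and DESeq2 1.42.0. The tests were tested on simulated data. Settings tried were scaling, read filters, model classes, pseudocounts, splice site matching, fixed variation between animals and leaving out each library.

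The genes named are the 9 genes, Tmod2, Lmod1 and members of a thin filament list, with annotated transcripts of 1% or more of a gene's reads and up to 3 recurring unannotated chains a gene; Myh7, Nppa and Ptprc are named from the marker lists. Tpm1-207, Tpm2-206, Tpm3-rs7 and the other exons and chains named outside this rule were chosen after their values were seen. Genes, lists and tests were chosen with earlier results of these data known.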

Additional observations from a re-analysis of the deposited data

Results flagged for a closer look

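Reads on the strand opposite to the genes lie outside the comparisons above, and those over 5 genes exceeded the limit of 3 reads that a count of 0 allows. Over Tpm1 there were 20 in replicate 1 and 63 in replicate 2, which is 0.0657 and 0.142 per 100 reads of the gene. In replicate 2 alone the limit was passed over Tpm2 with 8 reads, over Tpm3 with 21, over Tmod1 with 11 and over Tmod4 with 11. Over all mouse models, opposite-strand reads numbered 1.73 per 100 gene reads in replicate 1 and 5.56 in replicate 2. Tmod1, at 5.73 per 100 of its reads in replicate 2, was the only gene of these 5 at or above that level. The use of strand in the assignment of reads is not known here.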

How the results depend on the processing

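The counts of genes that differ between the libraries depend on the error assumed. Of the 9 genes, 5 passed under counting error, while edgeR's exact test passed 2 at a preset coefficient of variation of 0.2 and 0 at 0.4. Of the 8 genes tested for the leading chain 0 passed, and 2 did with incomplete models included. The number of unannotated chains found in both libraries was 78 of 287 with 1 or more reads in a library, 62 of 98 with 2 or more and 30 of 32 with 5 or more. Shares within families moved by more than 1 SD in these settings (means over both libraries): Tpm1 was at 87.6% over annotated transcripts and 87.3% without incomplete and genomic models, and Lmod1 at 0.676% and 0.575%. Per kb, Tpm1 was at 90.7%, Tpm2 at 6.32%, Tpm4 at 0.0790%, Tmod1 at 17.1%, Tmod3 at 0.769%, Tmod4 at 82.2% and Lmod1 at 0.778%. The striated terminal exon share of Tpm1 was 99.9% over annotated transcripts (99.900% against 99.861%). Over annotated transcripts alone Tmod3 and Lmod3 also passed as lower in replicate 2, with log2 ratios of -2.20 and -0.60, as did Tmod3 without incomplete and genomic models (-1.44). No call of the 9 genes that passed in the main comparison turned its direction under any setting run. Depth limits Tmod3, Lmod1 and Tmod2 most, with 25, 5 and 1 reads over both libraries. No paired analysis was possible because there is only 1 group.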
